A study of Arabidopsis thaliana with 18 samples.

Results

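The return of prmt5 mutant seedlings of Arabidopsis thaliana from long heat was followed through all 21428 of 37916 genes in the deposited table whose mean level reached at least 1 TPM over 6 libraries. These were 3 libraries made at the end of 3 days at 37 °C (called heat) and 3 made 24 h after that heat ended (called recovery). TPM is a relative transcript level that corrects for gene length and gives every library an equal sum. The mutant is labelled PRMT5 T-insert, and all groups were seedlings grown on half-strength MS medium with sucrose. Groups used beside these 6 libraries were prmt5 kept at 22 °C and WT at 22 °C, heat and recovery, with 3 libraries each, so that the series holds 18 libraries in 6 groups. The labels do not give the temperature during recovery, the age of the seedlings, the hour of harvest or the position of the insertion, and name 1 mutant line. Whether the 3 libraries of a group come from different plants is not stated, so p-values reflect spread among libraries that may be technical.

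PRMT5 is an arginine methyltransferase that places symmetric dimethyl marks on proteins of the spliceosome and on other targets. Plants lacking it are known for splicing defects, late flowering and a long circadian period. During heat, heat shock factors drive the synthesis of chaperones, which refold or hold damaged proteins, while photosynthesis and growth genes are turned down. When heat ends, chaperone transcripts normally decay within hours to days, ribosome production resumes and the chloroplast is rebuilt, and plants that fail at this step may senesce.

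PRMT5 itself was at 8.87, 5.44 and 5.64 TPM at heat and at 4.14, 3.80 and 3.44 TPM at recovery in prmt5, against 45.9 ± 1.75 TPM and 39.8 ± 1.08 TPM (mean ± SD, n = 3) in WT. The prmt5 libraries did not overlap with WT in either condition, with an exact permutation p of 0.1, the smallest that 3 libraries against 3 allow. The third recovery library of prmt5 stood apart from the others of its group. Small nucleolar RNA took 1.31% of its TPM, against 0.231% and 0.418% in the other recovery libraries, and mitochondrion-encoded genes 0.862% against 0.260% and 0.249%. It also lay alone on the second principal component, which held 5.0% of the variance, whereas the first, with 85.4%, separated heat from recovery. Counts without this library are given below where they differ by over 1.5 times. Wherever a gene is given library by library, the values stand in the order of the replicate numbers, and the heat and recovery groups did not overlap unless an overlap is stated. Depth is unknown, since TPM keeps no read counts. In seedling RNA, fewer cells of a type and less RNA per cell cannot be told apart.

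Most of the measured transcriptome differed between heat and recovery in prmt5. At an adjusted p under 0.05 from limma, 9480 genes (44.2%) were higher and 6445 (30.1%) lower at recovery, together 74.3% of genes tested, and the 2 groups did not overlap in 76.4%. Without the third recovery library, 9353 were higher and 6100 lower. The median log2 change of all genes was 0.20, so that a list has to be read against this value and not against 0. It moved to -0.04 under median-ratio scaling, with 7922 genes higher and 8416 lower, and to -0.10 under quantile normalization, with 7525 higher and 9037 lower. More than 4-fold changes on the log2(TPM + 1) scale were seen for 2038 higher and 652 lower genes in prmt5, against 748 and 661 in WT. The genes were kept on prmt5 libraries alone, so genes that change only in WT can be missing. Counts of prmt5 and WT are thus not on an equal footing, and these were not repeated under another scaling. Of the 21428 genes, 1675 had a group mean under 1 TPM at heat and 866 at recovery, and these were retained through their other group. Such a gene could hardly be called in the other direction, so for lists where several members are of this kind the number that reached 1 TPM in both groups is given. No direction of such a list is supported by its count alone.

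Over the same genes, WT called 30.4% higher and 33.9% lower at recovery (64.3% in all). The change in prmt5 and the change in WT, which share no library, had a Pearson correlation of 0.73 and a Spearman correlation of 0.717 across genes, which are not independent replicates. The difference between the 2 changes, tested as an interaction, was called for 50.3% of genes, with 7693 (35.9%) more positive in prmt5 and 3083 (14.4%) more negative. Its median over all genes was 0.29 and fell to 0.03 under median-ratio scaling, where 5313 were more positive and 5121 more negative, so the excess of positive differences depends on the scaling. Under quantile normalization the counts were 4877 and 5548. Against prmt5 kept at 22 °C, 56.2% of genes were higher and 22.1% lower at recovery (78.3% in all), with a median of 0.52. No 22 °C library entered the choice of genes, so genes present only at 22 °C can be missing here. Photosystem and carbon fixation genes summed to means of 61556 and 58214 TPM in prmt5 at 22 °C and 4252 and 2460 TPM at recovery. With an equal sum per library, such falls raise the values of other genes. Counts against 22 °C, here and below, are given under this scaling only, and the part of this was not tested.

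Summed levels of some organ and cell type markers differed between heat and recovery, and their part in the results below was not tested. Of root markers, 11 of 16 were measured, of which 5 reached 1 TPM in both groups, 5 rose and 0 fell, and their summed level went from 36.4 to 52.1 TPM at heat to 63.1 to 72.4 TPM at recovery. Stomatal markers summed to 64.3 to 81.5 TPM and then 113 to 133 TPM, with 6 of 13 higher and 1 lower. Shoot meristem markers summed to 15.1 to 20 TPM and then 32.4 to 33.2 TPM, with 4 of 5 higher and 1 lower. All 3 sums were higher in each recovery library than in any heat library, but the shares of root and stomatal markers called higher were near the 44.2% of all genes. Vascular markers were at 296 to 384 TPM and 369 to 419 TPM, with 6 of 11 higher and 4 lower. Seed markers, with 2 of 12 measured, and flower markers, with 2 of 8, were near absent, at no more than 5.15 TPM and 18.9 TPM in any of the 6 libraries.

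Heat shock chaperone genes fell together in prmt5 within 24 h. Of 23 genes for large chaperones, 23 fell and 0 rose, with a median log2 change of -2.26, and of 19 co-chaperones and thermotolerance genes, 19 fell, with a median of -2.06. Of 19 small heat shock proteins, 17 fell and 2 rose, with a median of -2.80. HSP70-4, a cytosolic Hsp70 that folds and refolds proteins, was at 1505, 1600.1 and 1586 TPM at heat and 45.9, 38.6 and 45.7 TPM at recovery. The means lay 36-fold apart, for a log2 change of -5.14 ± 0.21 (adjusted p = 1e-11). HSFA2, the heat-induced transcription factor that prolongs the response, was at 91.3, 92.8 and 135 TPM at heat and 2.53, 1.88 and 1.68 TPM at recovery, a log2 change of -5.13 ± 0.21 (adjusted p = 1.1e-11). HSP90.1, the heat-inducible cytosolic Hsp90, fell from 776, 795 and 780.5 TPM to 36.3, 34.7 and 31.6 TPM. ROF2, an immunophilin that binds Hsp90, and HOP3, which hands clients from Hsp70 to Hsp90, fell by 4.87 and 4.80 on the log2 scale. SFH10, a Sec14-type lipid transfer protein, was also among the 10 steepest falls of nuclear protein-coding genes with a symbol, at 538, 378 and 431 TPM and then 16.6, 12.7 and 11.6 TPM.

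The small heat shock proteins, which hold unfolding proteins and prevent their aggregation, fell less far in prmt5 than in WT. Their median change in WT was -4.22, and 14 of 19 had a more positive change in prmt5 while 0 had a more negative one. At recovery 16 of the 19 were still above prmt5 at 22 °C, with a median of 2.40. HSP21, the small heat shock protein of the chloroplast, was at 224, 255 and 391 TPM at heat and 49.1, 44.3 and 59.1 TPM at recovery, and was listed at 0 in the 22 °C libraries. Its log2 change was -2.46 ± 0.23 in prmt5 and -5.53 ± 0.23 in WT, which went from 543 ± 91.5 TPM to 11.3 ± 5.09 TPM, and the difference was 3.07 ± 0.33 (adjusted p = 3.2e-06). HSP17.6II, a cytosolic class II member, went from 815, 1083 and 1252 TPM to 61.0, 55.0 and 71.6 TPM, with a difference from WT of 2.196 ± 0.30 (adjusted p = 3e-05). HSP15.4 was an exception in direction, at 8.99, 6.09 and 3.73 TPM at heat and 24.7, 23.2 and 30.9 TPM at recovery. Outside the small heat shock proteins the direction was mixed. Of 19 co-chaperones and thermotolerance genes, 8 had a more positive change in prmt5 and 5 a more negative one. The difference from WT did not pass the test for HSP70-4, HSFA2 and HOP3 (adjusted p = 0.14, 0.53 and 0.91). ROF2 and HSP90.1 fell less far in prmt5 than in WT. So did APX2 and GOLS1, a further 2 genes that heat shock factors activate. APX2, a cytosolic ascorbate peroxidase, went from 47.1, 57.6 and 57.9 TPM to 34.4, 37.5 and 38.4 TPM in prmt5 (log2 change -0.54 ± 0.16, not past the test with a pseudocount of 0.1) while WT fell by 4.27, and GOLS1, a galactinol synthase, differed from WT by 3.00 ± 0.25 (adjusted p = 3.4e-07).

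The promoter of HSP21 is printed because this gene had the largest difference between genotypes among the small heat shock proteins. It is the 250 bases before the gene start in the RefSeq annotation of TAIR10.1, written 5′ to 3′ along the gene, with the 2-unit heat shock element (GAANNTTC or TTCNNGAA, both strands) in capitals.
HSP21 (chr4:13819972-13820221, minus strand): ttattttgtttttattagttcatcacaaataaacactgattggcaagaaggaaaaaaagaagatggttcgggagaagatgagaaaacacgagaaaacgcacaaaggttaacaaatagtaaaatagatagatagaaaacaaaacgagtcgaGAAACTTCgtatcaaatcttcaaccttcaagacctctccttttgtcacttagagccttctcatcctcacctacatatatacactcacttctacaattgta
The 2-unit element lay in 7 of 19 promoters of small heat shock proteins (36.8%) and in 16% of the promoters of all 19582 nuclear protein-coding genes measured. The 3-unit element (GAANNTTCNNGAA or TTCNNGAANNTTC), each copy of which also holds the shorter form, lay in 10.5% and 0.424%. Large chaperones held the 2-unit element in 1 of 23 promoters of this length. A match in these letters is a description and no site of binding.

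The large chaperones leaned the other way relative to WT. Their median change was -1.36 in WT, and the difference was more negative in prmt5 for 12 of 23 and more positive for 3, or for 17 and 1 under median-ratio scaling. HSP90.2, a constitutive cytosolic Hsp90, went from 871, 888 and 836 TPM to 112, 113 and 120.3 TPM, below its 328 ± 52.6 TPM at 22 °C, and differed from WT by -1.45 ± 0.17 (adjusted p = 7.6e-06). CPN60A, a subunit of the chloroplast chaperonin that assembles Rubisco, fell by 2.46 and differed by -1.41. Heat shock factors were split, with 7 of 18 higher and 5 lower, and their median of 0.25 turned to -0.015 under median-ratio scaling and to -0.14 under quantile normalization. Relative to WT, 9 of 18 had a more positive change in prmt5 and 0 a more negative one, beside 35.9% and 14.4% of all genes. These counts were 6 and 2 under median-ratio scaling, and 4 and 1 under quantile normalization. HSFB1, a class B factor that represses other heat shock genes, rose from 129, 126 and 156 TPM to 332, 371 and 244 TPM, where WT fell (-1.06 ± 0.28).

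**Figure D1:**
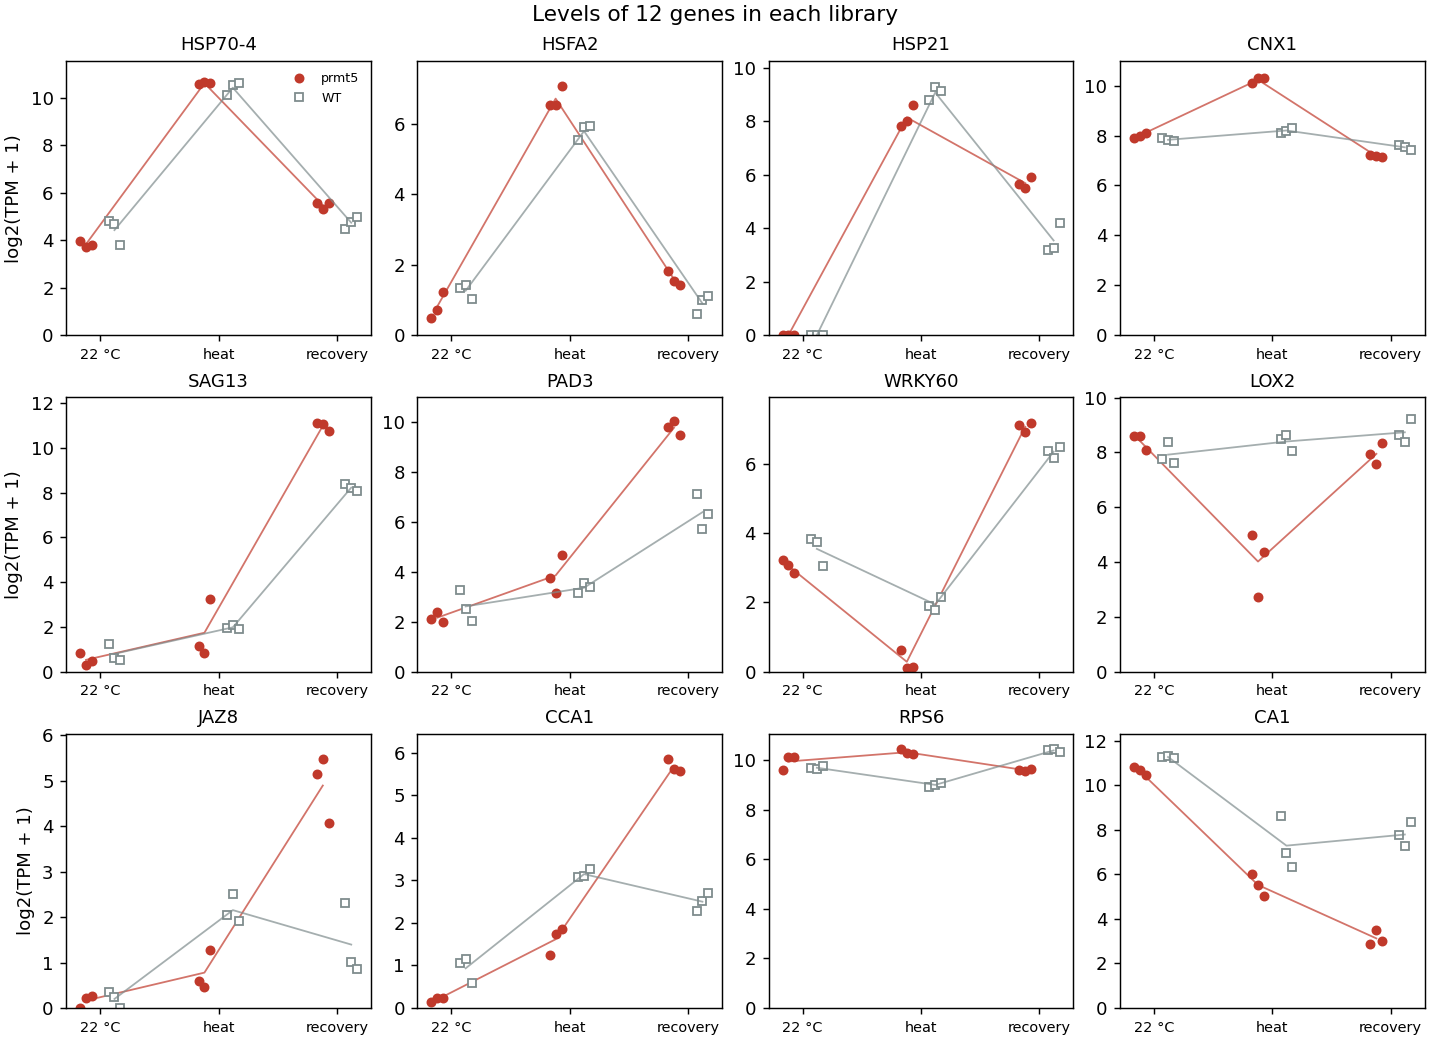
Level of 12 genes in each library as log2(TPM + 1), at 22 °C, heat and recovery, in prmt5 (filled circles) and WT (open squares). Lines join the group means of 3 libraries. HSP70-4 and HSFA2 returned to low levels in both genotypes, SAG13 and PAD3 stood higher in prmt5 at recovery, and CCA1 was at 56.6, 48.3 and 46.4 TPM there in prmt5.

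Genes of protein folding in the endoplasmic reticulum fell in prmt5, most of them more steeply than in WT. Of 31 genes of the unfolded protein response and ER folding, 25 fell and 5 rose, with a median of -1.34 against -0.45 in WT, and 22 had a more negative change in prmt5. Summed over the list, prmt5 was at 7595 to 8890 TPM at heat and 2209 to 2347 TPM at recovery. WT was at 3052 to 3322 TPM and 2288 to 2437 TPM, so the genotypes overlapped at recovery and not at heat. CNX1, the calnexin that holds glycoproteins during folding, was at 1103, 1256 and 1263 TPM at heat and 148, 142 and 139 TPM at recovery, with no overlap. The change was -3.06 ± 0.08 in prmt5 and -0.67 ± 0.08 in WT, where heat stood at 294 ± 22.2 TPM, and the difference was -2.39 ± 0.12 (adjusted p = 4e-09). BIP2, the Hsp70 of the ER lumen, went from 937, 1024 and 1113 TPM to 173, 156 and 155 TPM, a difference from WT of -2.31 ± 0.15 (adjusted p = 3.4e-08). PDIL2-2, a protein disulfide isomerase, and UTR1, a nucleotide sugar transporter of the ER, fell by 4.15 and 4.29. TIN1, a gene known for its induction by tunicamycin, was among the 10 steepest falls, at 112, 132 and 173 TPM and then 3.40, 3.03 and 3.52 TPM. BZIP60, the transcription factor whose mRNA is spliced by IRE1 in this response, rose, from 94.2, 84.5 and 82.6 TPM to 155, 159 and 132 TPM (0.76 ± 0.09). Of 52 proteasome subunits, 34 fell and 12 rose, with a median of -0.47 (6 rose under median-ratio scaling), and RPT3, an ATPase of the regulatory particle, went from 702, 808 and 711 TPM to 211, 204 and 200.4 TPM.

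Cytosolic ribosomal protein genes did not move as a group in prmt5, whereas they rose in WT. Of 222 measured genes, 70 were higher and 89 lower in prmt5, with a median of -0.06, against 178 higher and 17 lower in WT, with a median of 0.97. The difference between the changes was more negative in prmt5 for 192 of 222 (-0.99 in the median) and more positive for 4. Under median-ratio scaling 46 were higher and 130 lower in prmt5 with a median of -0.34, and under quantile normalization 82 and 83 with a median of 0.03, so the list has no firm direction in prmt5. The difference from WT stayed negative for 202 and 174 genes under these scalings. Summed over the list, prmt5 was at 71025 to 76589.9 TPM at heat and 64817 to 69703 TPM at recovery, while WT was at 70707 to 72596 TPM and 120619 to 133233 TPM. The heat ranges of both genotypes overlapped, and the recovery ranges did not.

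RPS6, a small subunit protein phosphorylated by the TOR pathway, had the largest difference of a named ribosomal protein. It was at 1375, 1244 and 1196 TPM at heat and 770.3, 749.7 and 784 TPM at recovery in prmt5, a change of -0.72 ± 0.11 (adjusted p = 2.9e-05), where WT went from 509 ± 27.8 TPM to 1337 ± 65.9 TPM. The difference was -2.12 ± 0.16 (adjusted p = 1.5e-07), and RPL34C, of the large subunit, differed by -2.06 ± 0.16 (adjusted p = 1.8e-07). SAG24, a large subunit protein whose gene is named for senescence, rose from 329, 325 and 348 TPM to 1611, 1726 and 1418 TPM. Levels of near-identical copies are uncertain: AT1G58983 went from 976, 837 and 792 TPM to 0 in each recovery library, while AT1G58684 and AT1G59359, which carry equal values, went from 10.3, 21.6 and 15.5 TPM to 517, 513 and 537 TPM. Reads of such copies can be assigned to one or the other, so no change is read from them. Genes of ribosome biogenesis gave 6 of 24 higher and 12 lower in prmt5 (2 and 17 under median-ratio scaling), against 14 and 3 in WT, and 16 had a more negative change in prmt5. FIB2, a fibrillarin that methylates ribosomal RNA, was at 38.4, 35.4 and 29.0 TPM and then 77.8, 73.2 and 79.3 TPM, short of the 294 ± 37.1 TPM of WT at recovery, with a difference of -1.29 ± 0.21 (adjusted p = 0.00013). NOP5-1, a core protein of the same particles, fell from 124, 112 and 112 TPM to 59.8, 59.6 and 62.0 TPM where WT rose (0.67 ± 0.15).

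The promoter of RPS6 is shown with site II (TGGGCC on either strand), a motif known from promoters of ribosomal protein genes, in capitals.
RPS6 (chr4:15347805-15348054, minus strand): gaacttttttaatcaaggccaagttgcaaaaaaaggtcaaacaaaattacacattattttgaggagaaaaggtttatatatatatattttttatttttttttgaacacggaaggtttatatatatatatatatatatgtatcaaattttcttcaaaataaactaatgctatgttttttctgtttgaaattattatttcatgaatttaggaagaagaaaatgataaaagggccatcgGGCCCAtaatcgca
Site II lay in 122 of 222 ribosomal protein promoters (55%) and in 16.9% of all promoters of the same length. The core of the telo-box (ACCCTA on either strand), another motif known from these promoters, lay in 28.4% and 8.58%, but not in the window of RPS6.

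**Figure D2:**
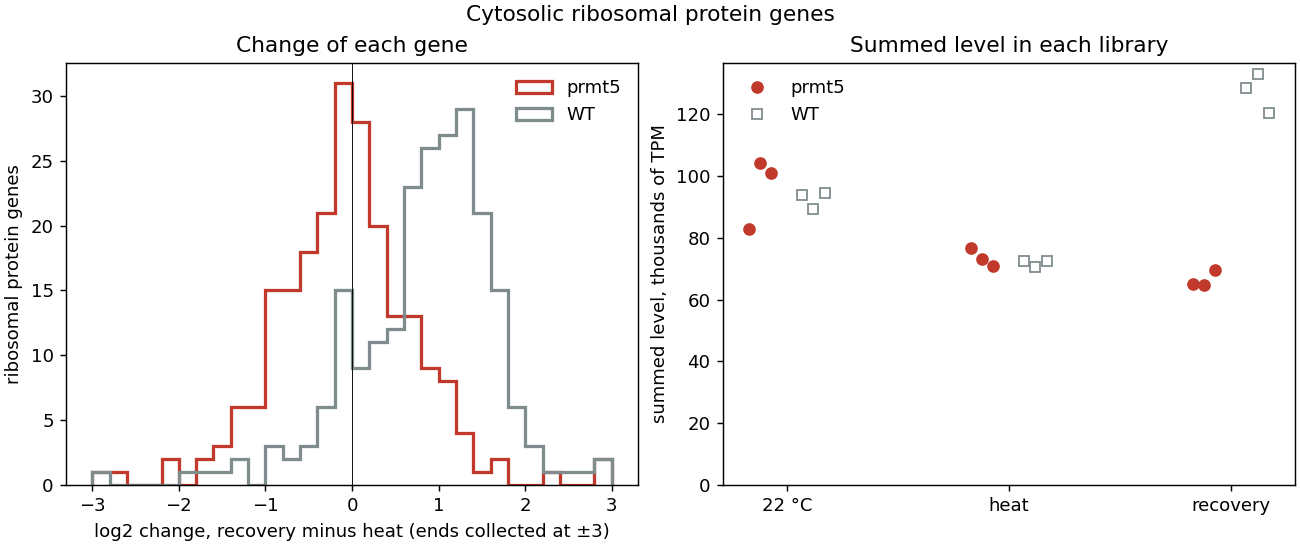
Cytosolic ribosomal protein genes. Left, number of genes by log2 change from heat to recovery in prmt5 and WT (n = 222 genes, median -0.06 and 0.97). Right, summed level of these genes in each library, with TPM scaled as on the axis, where the 3 recovery libraries of WT lie above all others.

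The steepest rises included genes of senescence and indole defence. SAG13, a short-chain dehydrogenase used as a senescence marker, was at 1.18, 0.800 and 8.41 TPM at heat and 2238, 2138 and 1749 TPM at recovery, the largest rise of a nuclear protein-coding gene with a symbol. At heat, the third library stood above the other heat libraries and still far below any recovery library. The log2 change was 9.25 ± 0.42 (adjusted p = 3e-11), against 6.25 ± 0.42 in WT, which reached 299 ± 31.4 TPM, and the difference was 3.006 ± 0.60 (adjusted p = 0.00069). WRKY60, a transcription factor of pathogen and abscisic acid responses, was at 0.540, 0.0700 and 0.0900 TPM and then 138, 119 and 144 TPM (6.79 ± 0.20). The other 8 of the 10 steepest rises were BHLH167, VQ10, CYP71A12, FOX2, NRT1.8, NIT2, PXMT1 and PCR8, with log2 changes from 6.24 (PCR8, named for cadmium resistance) to 6.86 (BHLH167, a basic helix-loop-helix factor). VQ10, a VQ-motif protein, was listed at 0 in each heat library and at 112, 133 and 89.2 TPM at recovery, and no fold is given for it, since the size of its log2 change depends on the pseudocount. NIT2, a nitrilase, was at 6.0, 7.44 and 22.4 TPM and then 895, 849.6 and 857 TPM. NRT1.8, a transporter that takes nitrate back from the xylem, was at 3.47, 1.69 and 7.99 TPM and then 449, 457 and 263 TPM. In both genes the third heat library was the highest of its group.

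All 10 measured genes of camalexin and indole defence, 9 of which reached 1 TPM in both groups, rose in prmt5, with a median of 3.38 against 1.33 in WT, and in all 10 the change was more positive than in WT. Under median-ratio scaling this difference was called for 9 of them. CYP79B2, which turns tryptophan into the aldoxime that feeds camalexin and indole glucosinolates, was at 72.9, 46.9 and 87.2 TPM at heat and 1112, 1302 and 824 TPM at recovery. Its difference from WT was 3.26 ± 0.31 (adjusted p = 9.9e-07). CYP71A12, a cytochrome P450 further down this path, was at 0.450, 0.450 and 0.360 TPM and then 162, 255 and 80.7 TPM. PAD3, the P450 that makes camalexin in the last step, was at 12.5, 7.84 and 24.1 TPM and then 880.2, 1057 and 701 TPM, where WT reached 89.5 ± 44.9 TPM. In each of these 3 genes the third recovery library was the lowest of its group. GSTF6, a glutathione transferase of the same path, rose 55.6-fold to 2723 ± 485 TPM. WRKY33, the transcription factor that activates PAD3, rose by 2.302 ± 0.27. FOX2, a flavin-linked oxidoreductase of the berberine bridge family, was at 1.24, 0.900 and 3.62 TPM and then 309.8, 436 and 167 TPM, where WT stayed at 3.61 ± 2.79 TPM, a difference of 5.28 ± 0.68 (adjusted p = 1.6e-05).

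Of 16 genes of chlorophyll breakdown and senescence, 14 at 1 TPM or more in both groups, 13 rose and 2 fell, with a median of 1.63 against 0.46 in WT, and 10 had a more positive change in prmt5. NAC92 (ORE1), a transcription factor that promotes leaf senescence, was at 6.81, 6.46 and 10.6 TPM and then 69.0, 73.8 and 39.2 TPM, with a difference from WT of 2.23 ± 0.45 (adjusted p = 0.00078). SAG21, a late embryogenesis abundant protein of mitochondria, reached 2185 ± 328 TPM from 277 ± 19.2 TPM. PPH, which removes the phytol tail from pheophytin during chlorophyll breakdown, was one of those that fell (-1.45 ± 0.12). Genes of sugar starvation and amino acid breakdown (19 at 1 TPM or more in both groups) gave 16 of 22 higher and 2 lower, and 15 had a more positive change than in WT. BGLU30, the dark-inducible beta-glucosidase also called DIN2, was at 0.110, 0.170 and 1.47 TPM and then 95.6, 149 and 42.8 TPM, and PPDK, pyruvate orthophosphate dikinase, went from 6.68, 5.72 and 6.03 TPM to 96.0, 94.7 and 99.2 TPM. DIN10, a raffinose synthase family member on the same list, fell from 114, 125 and 73.8 TPM to 26.4, 31.1 and 27.7 TPM. Of 15 genes of salicylic acid and systemic immunity, 13 at 1 TPM or more in both groups, 11 rose and 1 fell (0 without the third recovery library). Their median was 1.29, and 9 had a more positive change in prmt5 (5 under median-ratio scaling). WRKY70, which acts between salicylic acid and jasmonate signalling, was at 6.20, 2.95 and 2.94 TPM and then 46.5, 41.7 and 32.8 TPM, while WT did not pass the test (-0.23 ± 0.24), and the difference was 3.32 ± 0.33 (adjusted p = 1.7e-06).

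Jasmonate genes rose in prmt5, with a more positive change than in WT for most. Of 20 measured genes, 18 of which reached 1 TPM in both groups, 16 rose and 2 fell in prmt5 (median 1.56), against 2 and 7 in WT (median -0.25), and 16 had a more positive change in prmt5 while 0 had a more negative one. LOX2, the chloroplast lipoxygenase at the start of jasmonate synthesis, was at 30.6, 5.56 and 19.5 TPM at heat and 243, 188 and 327 TPM at recovery, beside 349 ± 65.1 TPM of prmt5 at 22 °C. WT was at 342 ± 66.8 TPM at heat and 439 ± 135 TPM at recovery, and the difference in change was 3.60 ± 0.60 (adjusted p = 0.00017). OPR3, the reductase of a later step, went from 7.85, 4.3 and 5.68 TPM to 53.3, 53.9 and 49.1 TPM, and MYC2, the transcription factor of the response, from 2.43, 1.07 and 0.440 TPM to 18.7, 17.57 and 19.8 TPM. JAZ8, a repressor that is itself induced by jasmonate, was at 0.520, 0.370 and 1.42 TPM and then 34.5, 43.4 and 15.8 TPM, with a difference of 4.88 ± 0.53 (adjusted p = 3.6e-06). VSP2, a vegetative storage protein, overlapped between heat and recovery in prmt5 and did not pass the test (0.67 ± 0.40, adjusted p = 0.14). It fell in WT (-3.50 ± 0.40), and the difference was 4.17 ± 0.57 (adjusted p = 2.7e-05). AOC2, an allene oxide cyclase between LOX2 and OPR3, fell from 258, 259.6 and 519 TPM to 57.1, 53.9 and 108 TPM.

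Abscisic acid genes (15 at 1 TPM or more in both groups) gave 14 of 17 higher and 2 lower, with a median of 1.12 against -0.15 in WT, and 13 had a more positive change in prmt5. CYP707A1, a hydroxylase that breaks abscisic acid down, was at 0.410, 0.510 and 0.270 TPM and then 76.7, 79.7 and 38.3 TPM, and ABA1, the zeaxanthin epoxidase of its synthesis, went from 12.9, 7.67 and 9.99 TPM to 53.1, 52.5 and 62.5 TPM. A gene of the hormone's synthesis and one of its breakdown both rose. RD20, a caleosin induced by abscisic acid and drought, was at 8.21, 9.72 and 14.0 TPM and then 168, 141 and 115 TPM, while WT fell (-1.39 ± 0.32). BGLU18, which frees abscisic acid from its glucose ester, was at 1.32, 0.660 and 3.04 TPM and then 43.6, 38.9 and 94.6 TPM, still under the 162 ± 14.6 TPM of prmt5 at 22 °C. These 2 genes were among the 6 named genes with the most positive difference from WT, at 5.02 and 5.53. Of 24 flavonoid and anthocyanin genes, 22 rose and 0 fell (median 2.1, WT 2.13), with 15 reaching 1 TPM in both groups, and 16 were below 22 °C. PAL1, the entry enzyme of the phenylpropanoid path, was at 13.2, 9.52 and 10.6 TPM and then 324, 343 and 271 TPM, above the 109 ± 1.86 TPM of 22 °C. DFR, a late anthocyanin enzyme, was at 0.280, 0.120 and 0 TPM and then 18.7, 14.2 and 51.5 TPM, with the third recovery library the highest. Aliphatic glucosinolate genes (15 at 1 TPM or more in both groups) gave 16 of 17 higher and 0 lower (median 1.41), and 13 were below 22 °C.

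The morning genes CCA1 and LHY of the circadian clock rose in prmt5, while in WT CCA1 fell and LHY did not pass the test. Of 25 clock genes, 13 rose and 8 fell in prmt5, 2 and 19 in WT, and 15 had a more positive change in prmt5 and 2 a more negative one (14 and 5 under median-ratio scaling). Without the first heat library or the second recovery library 5 fell, and under quantile normalization the list's median of 0.39 became -0.02. CCA1, a MYB factor of the morning, was at 1.38, 2.32 and 2.63 TPM at heat and 56.6, 48.3 and 46.4 TPM at recovery, where prmt5 at 22 °C stood at 0.147 ± 0.0404 TPM. WT went from 7.87 ± 0.657 TPM to 4.69 ± 0.845 TPM, and the difference was 4.71 ± 0.25 (adjusted p = 7e-09). LHY, its close relative, was at 3.55, 3.77 and 5.78 TPM and then 83.3, 72.5 and 65.2 TPM, with a difference of 3.84 ± 0.20 (adjusted p = 6.5e-09). LNK3 and LNK4, partners of the activators of this loop, differed from WT by 4.67 ± 0.20 and 4.67 ± 0.16, and RVE8, one such activator, by 2.87 ± 0.26. LUX and ELF4, parts of the evening complex, fell from 98.7, 104 and 100.3 TPM to 25.1, 24.8 and 24 TPM and from 613, 612 and 663 TPM to 240.9, 236 and 239 TPM, and BOA, a relative of LUX, fell by 2.66. TOC1, another evening gene, was at 34.5, 24.5 and 24.3 TPM and then 26.3, 22.6 and 20.7 TPM, which overlapped (-0.24 ± 0.12, adjusted p = 0.095). The hour of harvest is not given, so a different phase and a different level cannot be told apart.

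Promoters of CCA1, LHY and LNK3 and of the jasmonate repressor JAZ8 are shown together because each of these risers holds a G-box (CACGTG, the same on both strands), in capitals.
CCA1 (chr2:19245341-19245590, plus strand): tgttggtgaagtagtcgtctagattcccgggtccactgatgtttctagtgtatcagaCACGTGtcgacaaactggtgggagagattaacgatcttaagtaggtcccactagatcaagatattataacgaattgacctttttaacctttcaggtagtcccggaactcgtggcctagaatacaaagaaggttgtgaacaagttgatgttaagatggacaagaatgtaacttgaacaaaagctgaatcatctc
LHY (chr1:37872-38121, minus strand): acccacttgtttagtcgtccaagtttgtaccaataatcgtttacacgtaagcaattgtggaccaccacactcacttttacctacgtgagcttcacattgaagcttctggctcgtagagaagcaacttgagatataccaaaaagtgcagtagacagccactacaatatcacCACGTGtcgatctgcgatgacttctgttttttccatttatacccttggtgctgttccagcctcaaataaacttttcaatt
LNK3 (chr3:3923265-3923514, plus strand): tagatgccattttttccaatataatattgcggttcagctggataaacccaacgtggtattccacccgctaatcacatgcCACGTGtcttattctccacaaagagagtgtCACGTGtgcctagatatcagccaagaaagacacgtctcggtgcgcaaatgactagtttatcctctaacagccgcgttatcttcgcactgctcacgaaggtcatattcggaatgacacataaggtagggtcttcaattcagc
JAZ8 (chr1:10596102-10596351, plus strand): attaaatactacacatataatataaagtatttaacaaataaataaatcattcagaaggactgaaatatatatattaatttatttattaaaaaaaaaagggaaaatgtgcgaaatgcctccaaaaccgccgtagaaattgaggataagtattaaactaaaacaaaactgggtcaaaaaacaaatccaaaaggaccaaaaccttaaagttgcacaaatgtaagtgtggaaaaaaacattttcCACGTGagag
LNK3 held 2 copies. The G-box lay in 8 of 25 clock promoters (32%), in 4 of 20 jasmonate promoters (20%) and in 7.33% of all promoters of this length. It also lay in the promoter of BOA, which fell, and was absent from those of LNK4, LOX2, MYC2 and OPR3, which rose. The I-box (GATAAG on either strand), known from light-regulated genes, lay in 12.2% of all promoters and in 4 of 17 antenna promoters.

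**Figure D3:**
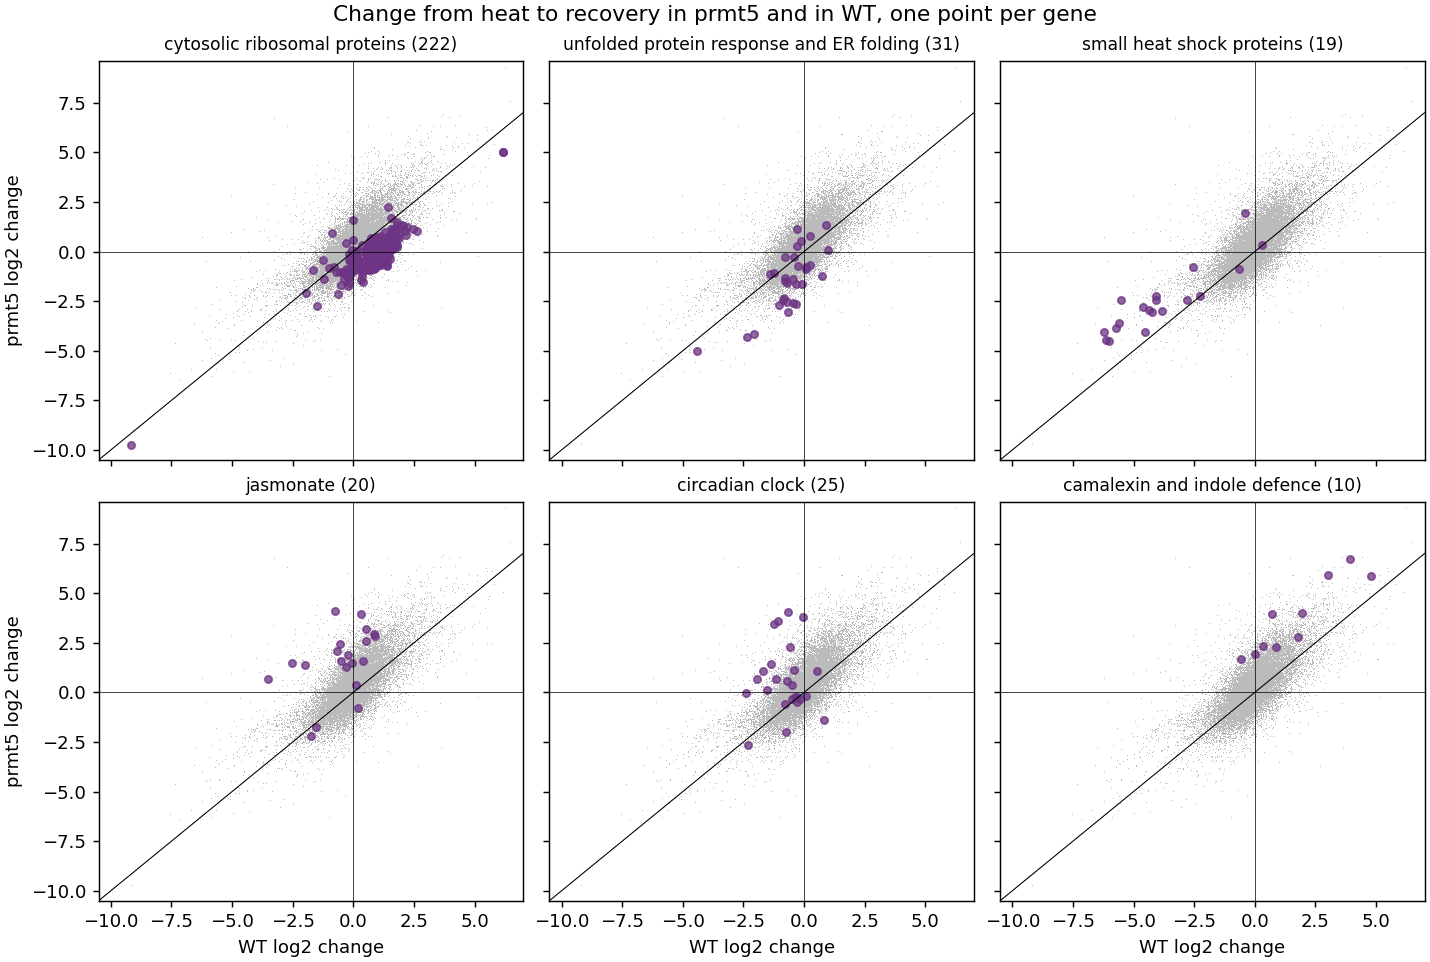
Log2 change from heat to recovery in prmt5 against that in WT. Each grey dot is 1 of 21428 genes, purple points are members of the list named above each panel (number tested in brackets), and the diagonal marks equal change. Most ribosomal protein and ER folding genes lie below the diagonal, and most jasmonate and all camalexin genes above it.

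Photosynthesis genes were far below their 22 °C level 24 h after heat. At recovery 32 of 32 photosystem and electron transport genes, 17 of 17 carbon fixation genes and 15 of 17 antenna genes were below prmt5 at 22 °C, with medians of -4.21, -3.83 and -4.03, and 0 were above it. Between heat and recovery 7 photosystem genes rose and 10 fell, and 3 carbon fixation genes rose and 5 fell, which is near or below the share of all genes in each direction. Without the first heat library, 11 photosystem genes rose, and the carbon fixation median of -0.06 ranged from -0.45 without the third recovery library to 0.17 without the first, and was -0.33 under median-ratio scaling. RBCS1A, a small subunit of Rubisco that stood at 18806 ± 2218 TPM at 22 °C, was at 1500.5, 1481 and 1646 TPM at heat and 523, 759.6 and 989.7 TPM at recovery. It fell further in prmt5 (-1.07 ± 0.25) while WT rose (0.85 ± 0.25), a difference of -1.92 ± 0.35 (adjusted p = 0.00038). CA1, the carbonic anhydrase of the chloroplast, went from 1610.1 ± 194 TPM at 22 °C to 63.7, 45.6 and 31.3 TPM at heat and 6.33, 10.3 and 7.01 TPM at recovery. Its difference from WT, where it was at 231 ± 87.7 TPM at recovery, was -2.90 ± 0.61 (adjusted p = 0.001). PSAD1, a photosystem I subunit, rose from 37.4, 13.5 and 15.0 TPM to 50.8, 86.5 and 132 TPM, still far from 1809 ± 132 TPM. Antenna genes were split, with 5 higher and 6 lower, and the split rested on single libraries: without the third recovery library 2 rose and 8 fell, without the first recovery library 3 fell, and without the second or the third heat library 2 rose. LHCB2.1, an antenna protein of photosystem II, was at 21.0, 6.37 and 10.2 TPM and then 59.5, 56.6 and 155 TPM, with the third recovery library far above the others. Of 20 chlorophyll synthesis genes 8 rose and 4 fell, and 18 were below 22 °C (5 and 5 for rise and fall under median-ratio scaling).

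Most genes for Sm and LSm proteins, the ring-forming proteins of splicing and RNA decay particles, some of which PRMT5 is known to methylate, fell in prmt5. On the list of 26 genes, which adds GRP7, GRP8 and AGO2 to them, 19 fell and 5 rose, with a median of -1.38 against -0.29 in WT, and 17 had a more negative change in prmt5. SMD3A, a core protein of the spliceosomal particles, was at 471, 502 and 509 TPM at heat and 83.8, 84.9 and 92.0 TPM at recovery, next to 88.6 ± 9.69 TPM at 22 °C. Its difference from WT was -1.32 ± 0.12 (adjusted p = 5.8e-07), and that of SME2, of the same ring, was -1.66 ± 0.12 (adjusted p = 1.2e-07). SMD2B was an exception, with a steeper fall in WT (-2.69 ± 0.09) than in prmt5 (-2.15 ± 0.09). GRP7 and GRP8, glycine-rich RNA-binding proteins under clock control, rose from 1702, 1332 and 1401 TPM to 5167, 5518 and 6152 TPM and from 431, 412 and 394 TPM to 1731, 1895 and 2037 TPM, without a called difference from WT (adjusted p = 0.17 and 0.85). With these 2 included, the summed level of the list was higher at recovery (8959 to 10469 TPM) than at heat (7764 to 8065 TPM), although its median was lower. SR splicing factors gave 11 of 20 lower and 2 higher. SR30, a factor known for its induction by stress, went from 519.5, 527 and 567 TPM to 127, 111 and 120.2 TPM. Among 8 arginine methyltransferases, 6 fell, PRMT5 with the remaining transcript included, and PRMT1A went from 35.8, 28.04 and 28.3 TPM to 11.6, 11.8 and 11.7 TPM. PRMT4A rose, from 4.42, 2.64 and 3.18 TPM to 11.8, 10.4 and 10.7 TPM.

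DNA replication genes had a more positive change in prmt5 for 21 of 24 genes and a more negative one for 0. In prmt5 14 rose and 3 fell (median 0.52), and in WT 3 rose and 16 fell (median -0.63). TSO2, a small subunit of ribonucleotide reductase, was at 11.3, 5.92 and 8.40 TPM at heat and 165, 167 and 172 TPM at recovery, which is the range of 22 °C (175 ± 26.03 TPM), and differed from WT by 2.38 ± 0.22 (adjusted p = 7.6e-07). CDT1A, which licenses origins of replication, went from 8.74, 7.66 and 7.10 TPM to 27.4, 28.4 and 21.8 TPM, where WT did not pass the test (-0.30 ± 0.15). MCM5, a subunit of the replicative helicase, was listed at 1236, 949.7 and 1189.5 TPM at heat and 53.3, 46.0 and 44.5 TPM at recovery in prmt5 and also fell in WT (-4.88 ± 0.14), unlike MCM3, MCM4 and MCM6, whose changes in prmt5 of 0.05, -0.34 and -0.27 did not pass the test, with overlap in MCM3 and MCM6. MCM5 lies beside the nuclear copy of mitochondrial DNA on chromosome 2, mitochondrion-encoded transcripts fell too, and the part of such reads in its value was not tested. Histone genes gave 26 of 37 higher and 4 lower, with a median of 1.17 (WT 1.44). Of 27 mitotic genes 16 rose and 8 fell, and 22 were below 22 °C. CENH3, the histone of centromeres, rose from 0.790, 1.56 and 1.52 TPM to 8.10, 6.84 and 8.50 TPM, but AUR2, an Aurora kinase, fell from 27.0, 22.5 and 24.6 TPM to 5.24, 4.01 and 5.02 TPM where WT did not pass the test (-0.06 ± 0.14), a difference of -2.10 ± 0.20 (adjusted p = 1.2e-06). CDC20.1, an activator of the anaphase-promoting complex, fell from 20.5, 18.8 and 20.9 TPM to 6.45, 4.93 and 4.35 TPM.

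Mitochondrial stress genes were above their 22 °C level. All 14 of 14 genes of alternative respiration and mitochondrial stress were above 22 °C at recovery, with a median of 3.12, and 7 rose and 5 fell since heat. AOX1A, the alternative oxidase that bypasses part of the respiratory chain, was at 356, 401 and 473 TPM and then 461, 502 and 436 TPM, which overlapped (0.19 ± 0.10, adjusted p = 0.087), against 30.1 ± 2.48 TPM at 22 °C. AOX1D, another alternative oxidase, rose from 2.55, 0.860 and 3.32 TPM to 82.8, 113 and 38.3 TPM, with a difference from WT of 3.09 ± 0.57 (adjusted p = 0.0004). UGT74E2, a glycosyltransferase induced by hydrogen peroxide, rose from 1.99, 1.07 and 1.53 TPM to 80.0, 94.0 and 105 TPM. Of autophagy genes, 27 of 27 were above 22 °C (median 1.302), while 13 fell and 2 rose since heat (4 without the third heat library). Transcripts encoded in the mitochondrion, which poly(A) selection captures poorly, fell for 20 of 24 measured genes, with a median of -2.34 against -3.86 in WT, and 17 had a more positive change in prmt5. Genes that scavenge reactive oxygen gave 11 of 23 higher and 7 lower, near the shares of all genes (44.2% and 30.1%). Their median of 0.22 turned to -0.05 under median-ratio scaling, and changes of members ran from -1.80 to 2.27, so the list has no direction of its own. DHAR1, a dehydroascorbate reductase, rose from 95.6, 87.1 and 91.5 TPM to 401, 366 and 539 TPM, and CAT3, a catalase of the evening, from 501, 229.9 and 245 TPM to 1299, 1435 and 1703 TPM.

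Nutrient and growth genes rose in larger number than they fell. Of 10 genes of nitrogen uptake and assimilation, 8 rose and 2 fell (1 without the third recovery library), with a median of 1.00. Of 19 iron uptake genes, 14 rose and 1 fell (0 without that library), with a median of 0.97. In these lists 9 and 14 genes, in that order, reached 1 TPM in both groups. AMT1;1, an ammonium transporter, was at 2.33, 1.99 and 2.29 TPM at heat and 54.1, 53.7 and 64.6 TPM at recovery and its difference from WT did not pass the test (adjusted p = 0.7). NIA2, a nitrate reductase, rose from 243, 174 and 199.5 TPM to 671, 689 and 583 TPM, with a difference from WT of 1.44 ± 0.23 (adjusted p = 0.00012). PYE, a transcription factor of iron deficiency, rose from 3.30, 1.77 and 1.24 TPM to 15.8, 13.8 and 13.7 TPM, and FER1, a ferritin that stores iron, from 159, 128 and 213 TPM to 658, 664 and 596 TPM. FER1 was 1 of 3 of 4 ferritins and iron storage genes that rose. Growth genes, expansins and xyloglucan enzymes (21 at 1 TPM or more in both groups) gave 17 of 24 higher and 1 lower (median 1.21, WT -0.01), and 13 had a more positive change in prmt5 (8 under median-ratio scaling). XTH17, a xyloglucan endotransglucosylase that loosens cell walls, rose from 2.83, 2.13 and 2.07 TPM to 9.76, 9.85 and 8.55 TPM where WT fell (-1.24 ± 0.28). IAA19, an auxin-responsive repressor, was the gene that fell, from 14.6, 15.2 and 16.7 TPM to 1.51, 3.07 and 2.52 TPM. DNA damage genes gave 11 of 19 higher and 3 lower (6 lower under quantile normalization), and SMR7, an inhibitor of cyclin-dependent kinases, rose from 2.59, 2.21 and 1.72 TPM to 30.4, 29.7 and 29.1 TPM.

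Hypoxia genes gave 7 of 13 higher and 2 lower, and ADH1, the alcohol dehydrogenase of fermentation, rose from 15.2, 14.71 and 21.1 TPM to 215, 225 and 224 TPM. SRO5, a stress gene on the same list, fell from 287, 371 and 367 TPM to 76.6, 77.8 and 57.4 TPM. Cold and dehydration genes, of which 9 of 14 reached 1 TPM in both groups, gave 9 higher and 4 lower, with a more positive change than in WT for 8 (3 under median-ratio scaling). COR413PM1, a cold-regulated membrane protein, rose from 76.9, 70.6 and 60 TPM to 226, 240.6 and 310.2 TPM, while KIN1, a small hydrophilic protein of cold and drought, fell from 139.8, 189 and 217 TPM to 49.5, 46.4 and 66.7 TPM. Of 5 galactinol and raffinose genes, 3 of which reached 1 TPM in both groups, 3 rose and 1 fell, and 1 rose without the third heat library or without any 1 of the recovery libraries. Plastid-encoded genes, of which 34 of 88 were measured in these poly(A)-selected libraries, reached 1 TPM in both groups for 20 and gave 5 higher and 2 lower, and 5 lower without the third recovery library.

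The 6 named genes with the most positive difference between the changes in prmt5 and WT were GSTU3, BGLU18, FOX2, RD20, SQP1 and ATTI3. GSTU3, a tau-class glutathione transferase, was at 1.38, 1.62 and 3.07 TPM at heat and 208, 272 and 109.6 TPM at recovery, where WT was at 2.23 ± 1.27 TPM. SQP1, a squalene epoxidase-like enzyme, rose from 31.6, 21.0 and 28.8 TPM to 251, 217 and 179 TPM while WT fell (-2.0 ± 0.21). ATTI3, a trypsin inhibitor, went from 0, 1.59 and 5.96 TPM to 68.9, 45.6 and 115 TPM. In these 3 genes every recovery library of prmt5 lay above every heat library. The most negative differences were those of MBS1, AGP3, PER39, CA1, RABA1e and AEE9. MBS1, a zinc finger protein of singlet oxygen signalling, was at 48.3, 84.5 and 86.6 TPM at heat and listed at 0 in each recovery library and in all 9 WT libraries, so no fold is given for it and its rank depends on the pseudocount. Whether its value holds reads of a similar sequence was not tested. PER39, a secreted peroxidase, fell from 11.3, 12.7 and 8.55 TPM to 2.62, 2.18 and 2.18 TPM while WT rose (1.32 ± 0.23). RABA1e, a small GTPase of membrane traffic, fell from 42.2, 50.2 and 50.9 TPM to 20.4, 16.8 and 12.3 TPM and rose in WT (1.35 ± 0.34). AGP3, an arabinogalactan protein, did not pass the test in prmt5 (-1.24 ± 0.54, adjusted p = 0.051) and rose in WT (2.62 ± 0.54). AEE9, an acyl-activating enzyme, fell by 1.41 in prmt5 and rose by 1.43 in WT.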

How the data were processed

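Oligo-dT-selected RNA of seedlings was sequenced with a TruSeq library kit, per the labels' protocols. RSEM and the build TAIR10 are given in the submitters' processing notes, without a version of RSEM. The deposited table holds TPM values per gene, made by the authors. Their mean columns equal the means of the libraries within 3.3e-05. TPM carries no read counts, so depth is unknown and no count model was used. In 20 genes at heat and 37 at recovery, 1 library reads 0 where the other 2 reach 10 TPM or more.

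Genes with a mean of at least 1 TPM over the 6 libraries were kept. Values were taken as log2(TPM + 1), a scale that understates changes of low genes. One limma model (3.58.1, R 4.3.3) of 6 group means over 18 libraries, with a trended prior, gave all contrasts. Two-sided p-values were adjusted by Benjamini-Hochberg over 21428 genes at a threshold of 0.05. The method was run on simulated data in which few genes changed, in a single group, and libraries were not scaled to an equal sum. That run therefore does not cover data where most genes change or the effect of scaling. PRMT5 was also compared by a two-sided exact permutation test. Tables and plots were made with Python 3.11.15, pandas 2.3.3, numpy 2.4.6 and matplotlib 3.10.9. Of the identifiers, 37573 matched RefSeq TAIR10.1, whose genome gave the promoters.

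The members and the 46 gene lists were chosen with earlier results of these data known. Named genes were the 10 steepest rises and falls and the 6 extremes of the genotype difference on either side. These were taken among nuclear protein-coding genes that carry a symbol and pass the threshold, with a mean of at least 5 TPM in the higher group and, for the change itself, groups without overlap. Up to 5 members of each list by change, and up to 2 by difference, were added. The RPS2 copies AT1G58983, AT1G58684 and AT1G59359 came in by this list rule. AOC2, AOX1A, BZIP60, CDC20.1, DIN10, ELF4, GRP7, LUX, MCM3, MCM4, MCM6, PPH, RVE8, TOC1 and WRKY33 were chosen after their values were seen. Alternatives covered pseudocount, filter, scaling, weights, libraries entering the fit, a replicate block and each library left out.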

Additional observations from a re-analysis of the deposited data

Results flagged for a closer look

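The change from heat to recovery differed between prmt5 and WT, by the test of the difference, for many genes. It was more positive in prmt5 for 7693 genes and more negative for 3083. The most negative log2 differences with a symbol were -6.16 for MBS1, -3.86 for AGP3, -3.14 for PER39, -2.9 for CA1, -2.85 for RABA1e and -2.84 for AEE9. The most positive were 6.21 for GSTU3, 5.53 for BGLU18, 5.28 for FOX2, 5.02 for RD20, 4.95 for SQP1 and 4.9 for ATTI3. The value of MBS1 is no measured size: it is listed at 0 in all 9 WT and all 3 prmt5 recovery libraries, so the pseudocount sets it, and whether reads of a similar sequence enter its prmt5 heat libraries was not tested.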

How the results depend on the processing

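The counts of genes that rose and fell in prmt5 stayed within 1.5 times of the reported counts under every alternative run. With single libraries left out they ranged from 8920 to 9496 higher and from 6045 to 6377 lower. Same-numbered heat and recovery libraries showed no shared deviation from their group means, with correlations of -0.005, 0.061 and -0.092. With 3 libraries a group, these values cannot show that the libraries were unpaired. A fit with the replicate number as a block gave 9404 higher and 6384 lower, and 7497 more positive and 2984 more negative differences between genotypes. Scaling moved those differences most. Median-ratio scaling gave 5121 more negative ones, and quantile normalization 4877 more positive and 5548 more negative. Among named genes that passed the test, quantile normalization turned the sign of RS5 (-0.0299, adjusted p = 0.88) and CLV1 (-0.22, adjusted p = 0.035), and the cause was not tested. Of the values for these genes under alternatives, 4586 kept their direction and side of the threshold, 60 lost the threshold and 2 changed sign. Of named genes that had not passed, AGP3 passed under median-ratio scaling (adjusted p = 0.02), and ATG13A went from 0.09 to -0.19 (adjusted p = 0.038) under it. Of the list counts and medians, 2260 moved little and 215 more. With 3 libraries a group and no read counts, the precision of genes near the 1 TPM minimum is not known.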
